A study of Arabidopsis thaliana with 6 samples.

Results

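The 10 genes described here encode the blue light receptors of the ZEITLUPE family and the transcription factors that work around GIGANTEA (GI), in root tips of the Arabidopsis thaliana hsl2 mutant and of the wild type. They are ZTL (AT5G57360), LKP2 (AT2G18915), FKF1 (AT1G68050), CDF1 (AT5G62430), CDF2 (AT5G39660), CDF3 (AT3G47500), CDF5 (AT1G69570), COL5 (AT5G57660), COL1 (AT5G15850) and COL2 (AT3G02380). They were taken by locus from the 37336 identifiers of the count files, and 10 of 10 were found. The reference annotation gives 9 of them the same symbol and describes AT1G69570 only as a Dof-type zinc finger gene. They were chosen by locus, with no threshold on a value, but the list was drawn up with the hsl2 over wild type fold changes of these data known, in which GI had stood out as lower in hsl2. The differences between genotypes are therefore given as a description.

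The samples were 3 libraries of the hsl2 mutant in the Col-0 accession and 3 of wild type Col-0, each from total RNA of the outermost 0.5 mm of primary roots at 7 days. Seedlings of both genotypes grew on vertical agar plates without sucrose, with 16 h of light and 8 h of dark. HSL2 encodes a HAESA-type receptor-like kinase, and the series asks how its loss bears on root cap sloughing. The labels give neither the hsl2 allele nor the time of day at which roots were collected, and do not say whether replicates are separately grown plants, so p-values measure only the spread between these libraries.

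ZTL, LKP2 and FKF1 join a light-sensing LOV domain to an F-box, by which they enter an SCF ubiquitin ligase, and to kelch repeats that bind substrates. GI binds their LOV domains. ZTL marks the clock proteins TOC1 and PRR5 for breakdown, while FKF1 together with GI removes the CYCLING DOF FACTOR (CDF) repressors, which otherwise hold down CONSTANS (CO) and FT in leaves. The CONSTANS-LIKE (COL) proteins are relatives of CO with B-box zinc fingers and a CCT domain. Transcripts of GI, FKF1 and several CDF and COL genes rise and fall over the day in seedlings, and most work on them concerns leaves and flowering time.

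Total counts per library ran from 15051468 to 20468890, and a count of 3 corresponded to 0.148 to 0.213 CPM (counts scaled to the TMM library size), which limits what can be said of the rarest members. HSL2 itself was at 7.61, 9.76 and 9.81 CPM in hsl2 and at 6.98, 8.61 and 7.22 CPM in wild type, for a log2 fold change of 0.26 ± 0.18 (standard error; adjusted p = 0.537, edgeR), so that its level does not check the genotype labels. All 6 root cap markers and all 7 root hair markers had counts in every library. The root cap markers summed to 104, 141 and 132 CPM in hsl2 1, 2 and 3 and to 219, 269 and 142 CPM in wild type 1, 2 and 3, and the root hair markers to 52.6, 61.8 and 67.5 CPM in hsl2 and 30.8, 34.9 and 58.3 CPM in wild type. Wild type 3 lay close to or within the hsl2 range in both. Of 10 markers of green tissue 9 had counts in every library and 0 were at 0 throughout. They summed to 104 CPM in hsl2 1, against 24.6 and 23.4 CPM in the other hsl2 libraries and 17.4 to 30.0 CPM in wild type. What part these differences play in the values below was not tested. Fewer cells of a type and less RNA per cell cannot be told apart in such bulk samples.

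The genes differed widely in level. Per length, in TPM (counts per exon length, scaled to a common total in each library), COL5 was the highest member in wild type at 42.3 ± 4.70 TPM, followed by ZTL at 13.5 ± 0.711 TPM (SD, n = 3 each). LKP2 was at 10.4 ± 2.26 TPM, FKF1 at 10.3 ± 1.95 TPM and CDF2 at 10.3 ± 3.25 TPM (SD, n = 3 each). In this order of wild type levels ZTL, LKP2, FKF1 and CDF2 overlapped each with its neighbour, whereas COL5 lay above them in every library. CDF3 followed at 3.74 ± 1.86 TPM and COL1 at 0.958 ± 0.0552 TPM (SD, n = 3 each). CDF5 at 0.571 ± 0.200 TPM, CDF1 at 0.506 ± 0.0852 TPM and COL2 at 0.109 ± 0.0239 TPM closed the order (SD, n = 3 each), and only CDF5 and CDF1 overlapped there. COL5 exceeded 75.5% of all genes tested in mean wild type TPM, ZTL 43.6% and CDF3 16.5%, so that most of the family was expressed at middling to low level in the root tip.

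In hsl2 the order of levels differed in a few places. COL5 was again first at 21.9 ± 2.46 TPM and ZTL second at 11.2 ± 1.44 TPM (SD, n = 3 each). CDF2 at 8.54 ± 0.735 TPM and LKP2 at 7.08 ± 1.15 TPM overlapped (SD, n = 3 each). FKF1, at 4.79 ± 0.593 TPM (SD, n = 3), lay below LKP2 in every hsl2 library, while in wild type their ranges overlapped. CDF3 was at 1.23 ± 0.433 TPM, CDF1 at 0.499 ± 0.0857 TPM, CDF5 at 0.263 ± 0.0823 TPM, COL1 at 0.233 ± 0.0588 TPM and COL2 at 0.0816 ± 0.0721 TPM (SD, n = 3 each).

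All 7 tested members were lower in hsl2 by log2 fold change, as were 8714 of all 17989 genes tested. Among these members were FKF1, COL5 and, with fewer reads, CDF3, while ZTL and CDF2 differed little, at -0.17 and -0.16. The list was chosen with this contrast known, and COL1 passed the filter on low counts through wild type only. The count of lower members therefore carries no weight as evidence. Short promoter motifs through which the clock is known to act on some genes were looked for, as a description of letters only. What part they play in the differences was not tested. FKF1, COL5 and CDF3 were picked for display with their differences known. The stretches of 300 bases just upstream of the annotated starts of these genes are shown. They were read by locus from the RefSeq genome and annotation TAIR10.1, since the build behind the counts is not given in the sources used here. The FKF1 window is chr1:25508339-25508638 on the plus strand, the COL5 window chr5:23355037-23355336 on the plus strand, and the CDF3 window chr3:17506125-17506424 on the minus strand. Capitals mark matches, on either strand, to the core of the evening element (AAATATCT), the CCA1-binding site (AAAAATCT) or the G-box (CACGTG).
FKF1: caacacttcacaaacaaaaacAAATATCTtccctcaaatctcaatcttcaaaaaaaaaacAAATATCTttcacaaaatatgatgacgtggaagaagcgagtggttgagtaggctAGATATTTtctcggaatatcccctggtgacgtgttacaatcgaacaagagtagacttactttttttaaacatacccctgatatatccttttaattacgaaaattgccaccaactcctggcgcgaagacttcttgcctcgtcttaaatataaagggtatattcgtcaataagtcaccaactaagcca
COL5: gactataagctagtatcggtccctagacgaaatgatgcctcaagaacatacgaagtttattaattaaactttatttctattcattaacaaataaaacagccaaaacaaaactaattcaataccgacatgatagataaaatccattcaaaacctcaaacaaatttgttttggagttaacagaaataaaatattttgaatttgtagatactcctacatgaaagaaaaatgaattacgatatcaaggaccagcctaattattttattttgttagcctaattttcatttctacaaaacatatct
CDF3: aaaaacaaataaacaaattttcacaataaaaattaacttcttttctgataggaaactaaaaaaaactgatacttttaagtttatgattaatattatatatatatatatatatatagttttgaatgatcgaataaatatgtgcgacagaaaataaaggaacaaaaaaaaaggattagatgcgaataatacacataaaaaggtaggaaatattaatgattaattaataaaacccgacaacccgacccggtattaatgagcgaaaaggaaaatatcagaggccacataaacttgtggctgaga
The FKF1 window held 3 matches to the evening element core and none to the other motifs. They lay 279 to 272 and 240 to 233 bases upstream of the start on the gene's own strand and 186 to 179 bases upstream on the opposite strand, and shared no bases. Of 27443 such windows of protein-coding genes, 1548 (5.64%) held at least 1 match to this core and 8 held 3 or more. The COL5 and CDF3 windows held no match to any of the 3 motifs. Of the other members, COL2 had 1 evening element core, LKP2 and CDF5 had 1 CCA1-binding site each (a motif in 7.94% of all windows), and CDF2 had 1 G-box (7.09% of all windows). ZTL, CDF1 and COL1 had no match, and neither had the window of GI.

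Among the F-box receptors, FKF1 was lower in every hsl2 library, while the libraries of LKP2 and ZTL overlapped. Whether the genes differ in their response was not tested. FKF1, the receptor that removes CDF proteins in the light, was at 8.54, 6.52 and 5.76 CPM in hsl2 1, 2 and 3, against 15.9, 10.6 and 14.9 CPM in wild type 1, 2 and 3. All hsl2 libraries lay below all wild type libraries. The means were 6.94 ± 1.44 CPM in hsl2 and 13.8 ± 2.83 CPM in wild type (SD, n = 3 each), for a log2 fold change of -1.0 ± 0.21 (standard error) that did not pass the threshold of 0.05 over the 17989 genes tested (adjusted p = 0.166, edgeR's quasi-likelihood test). FKF1 and the neighbouring MAP70-1 overlap by 21 bases on opposite strands in the annotation. MAP70-1 was at 146, 159 and 170 CPM in hsl2 and 146, 164 and 147 CPM in wild type.

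LKP2, a close relative of ZTL, was at 10.5, 12.1 and 10.2 CPM in hsl2 and 14.6, 12.1 and 18.4 CPM in wild type. The libraries hsl2 2 and wild type 2 met at 12.1 CPM, and wild type 3 was the highest. The log2 fold change was -0.46 ± 0.18 (standard error; adjusted p = 0.342, edgeR). ZTL, the receptor that acts on the clock proteins TOC1 and PRR5, was at 17.8, 19.4 and 17.1 CPM in hsl2 and 21.1, 21.0 and 18.9 CPM in wild type. Its groups overlapped through hsl2 2 and wild type 3, and the log2 fold change was -0.17 ± 0.14 (standard error; adjusted p = 0.580, edgeR). ZTL is known to be controlled mostly at the protein level, with a steady transcript over the day.

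The share of each gene in its family sets the members side by side within a library. FKF1 took 25.1%, 18.7% and 19.0% of the summed TPM of the receptors in hsl2 1, 2 and 3 and 33.0%, 26.2% and 30.6% in wild type 1, 2 and 3. The genotypes did not overlap in this share, which comes from the same FKF1 counts as above and is not a separate result. ZTL took 48.5 ± 1.84% in hsl2 and 39.8 ± 5.85% in wild type, and LKP2 30.6 ± 1.90% in hsl2 and 30.2 ± 4.04% in wild type (SD, n = 3 each). The summed level itself was 23.1 ± 2.49 TPM in hsl2 and 34.3 ± 3.18 TPM in wild type (SD, n = 3 each). TPM carries no TMM scaling, so this gap is not on the scale of the CPM values and fold changes.

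**Figure D1:**
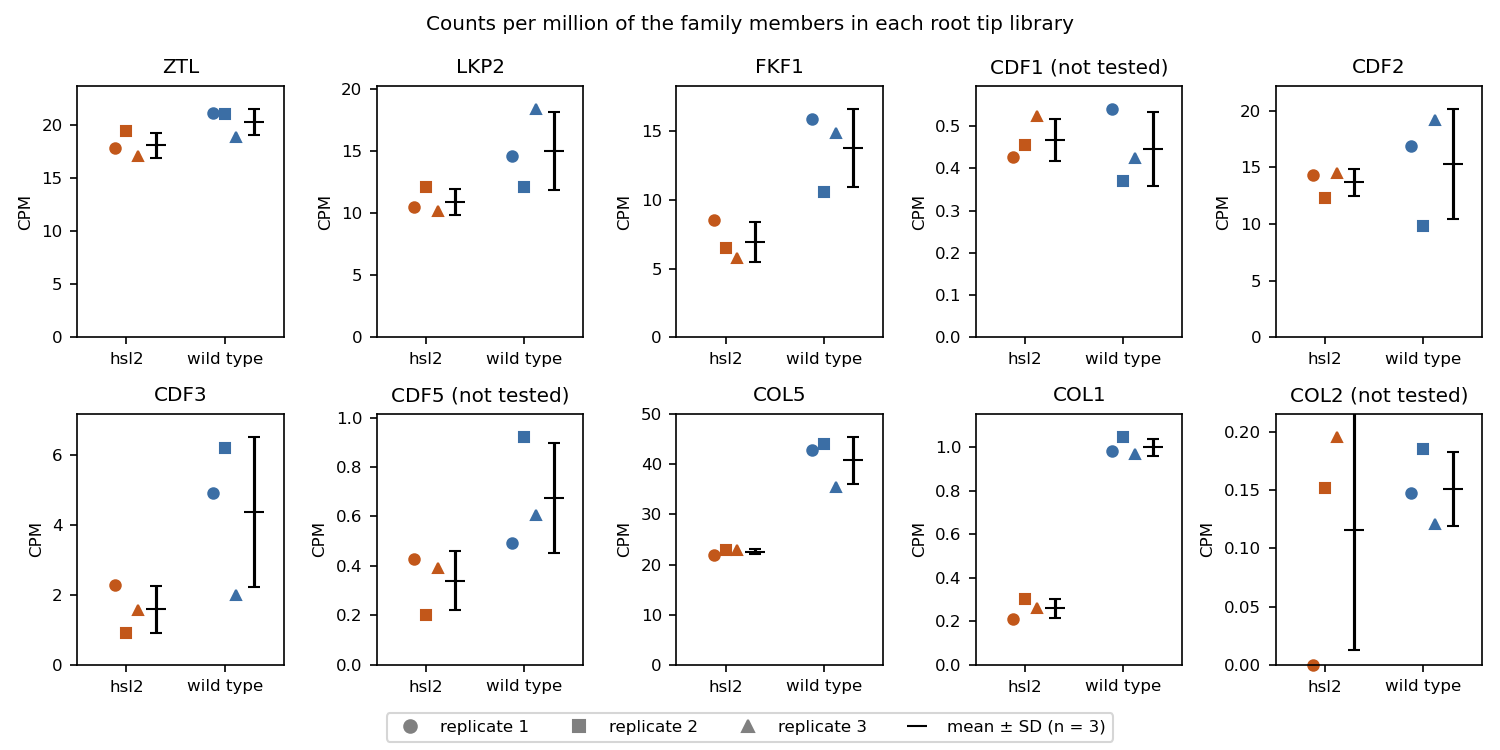
CPM of each of the 10 genes in each library, with hsl2 on the left and wild type on the right of each panel, the replicate number as the symbol, and the mean ± SD as a bar. FKF1, COL5, COL1 and the untested CDF5, at 15 counts or fewer, show hsl2 libraries that all lie below all wild type libraries, while wild type 3 falls among the hsl2 libraries for CDF3.

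Within the CDF family, which encodes DNA-binding repressors of CO and FT with a single Dof zinc finger, CDF3 had the lower mean in hsl2 by the wider margin among the tested CDF genes, and CDF2 lay within the wild type range. CDF3 was at 2.28, 0.910 and 1.57 CPM in hsl2, from 18 to 32 counts, and at 4.92, 6.21 and 2.0 CPM in wild type, from 33 to 101 counts. Wild type 3 lay inside the hsl2 range and far below the other wild type libraries. The means were 1.59 ± 0.684 CPM in hsl2 and 4.38 ± 2.16 CPM in wild type (SD, n = 3 each), for a log2 fold change of -1.49 ± 0.45 (standard error; adjusted p = 0.267, edgeR). Without hsl2 1 and wild type 3, the libraries that stood out in the green tissue and root hair markers, it was -2.19 (adjusted p = 0.00571, edgeR). For CDF3 hsl2 1 was the highest hsl2 library and wild type 3 the lowest wild type library, so leaving out both favours a larger difference. In that setting 1311 genes passed.

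CDF2, the most abundant CDF transcript here, was at 14.3, 12.3 and 14.5 CPM in hsl2 and 16.9, 9.84 and 19.2 CPM in wild type. The hsl2 libraries lay within the wild type range, and wild type 2 was the lowest of the 6. The log2 fold change was -0.16 ± 0.23 (standard error; adjusted p = 0.761, edgeR) and turned to 0.03 without wild type 3. CDF1, the best known repressor of CO among them, had 6, 9 and 8 counts in hsl2 and 11, 6 and 7 in wild type, too few to pass the filter on low counts. At 0.427 to 0.523 CPM in hsl2 and 0.369 to 0.541 CPM in wild type, the groups overlapped throughout.

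CDF5 had 6, 4 and 6 counts in hsl2 and 10, 15 and 10 counts in wild type, and was not tested for the same reason. In CPM the hsl2 libraries, at 0.427, 0.202 and 0.393, all lay below the wild type libraries, at 0.492, 0.923 and 0.607. Without the filter its log2 fold change was -1.0 ± 0.60 (standard error; adjusted p = 0.525, edgeR). The annotation places a natural antisense transcript, AT1G69572, over 1241 bases of CDF5. It had 1, 6 and 6 counts in hsl2 and 2, 2 and 3 counts in wild type. The strand setting of the authors' counting is not given in the sources used here, so how the reads of such a pair were split cannot be checked.

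Over the CDF family CDF2 took 77.5%, 84.9% and 81.0% of the summed TPM in hsl2 1, 2 and 3, and 68.4%, 50.4% and 82.7% in wild type 1, 2 and 3. CDF3 took 15.7%, 7.98% and 11.2% in hsl2 and 25.4%, 40.5% and 11.0% in wild type. In both shares wild type 3 stood with the hsl2 libraries. The summed level, again without TMM scaling, was 10.5 ± 0.970 TPM in hsl2 and 15.1 ± 1.5 TPM in wild type (SD, n = 3 each).

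**Figure D2:**
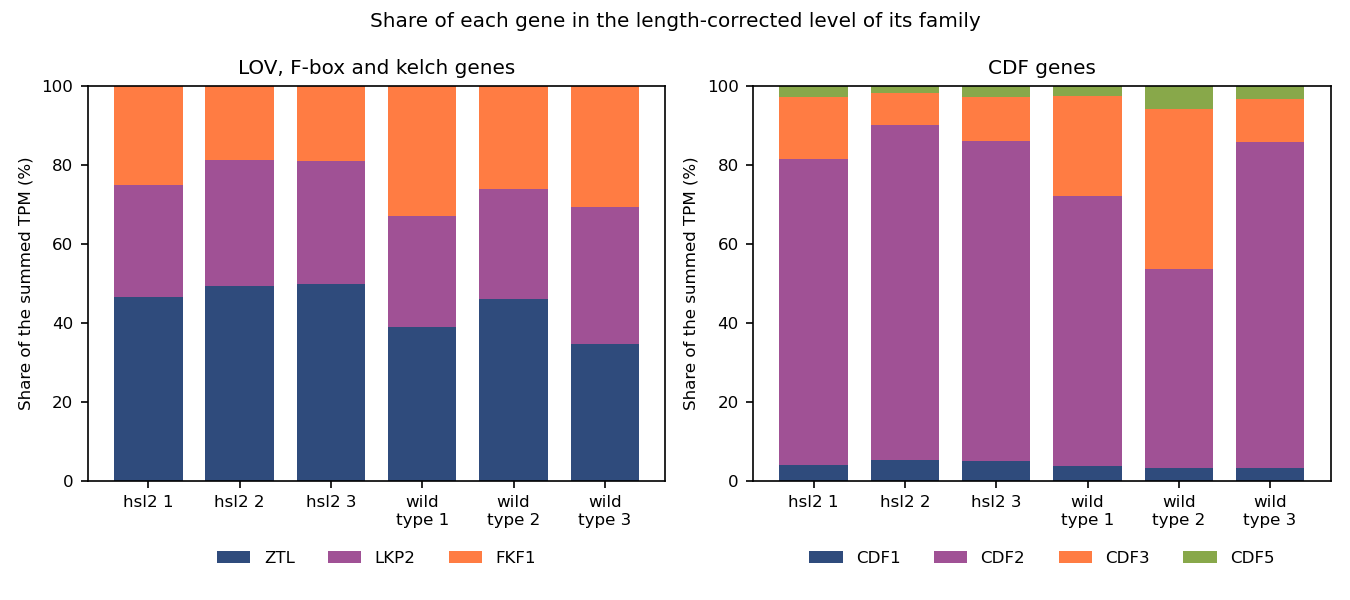
Share of each gene in the summed TPM of the F-box receptors (left panel) and of the CDF genes (right panel), as stacked bars for the 3 hsl2 and then the 3 wild type libraries, in percent. FKF1 takes 18.7% to 25.1% of the receptors in hsl2 and 26.2% to 33.0% in wild type, and CDF3 takes 40.5% of the CDF genes in wild type 2 but 11.0% in wild type 3.

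COL5, a CONSTANS-like gene whose transcript cycles over the day, was the best counted member. It was at 22.0, 23.0 and 23.0 CPM in hsl2, against 42.8, 44.1 and 35.4 CPM in wild type. No library of one genotype reached the range of the other. The means were 22.6 ± 0.559 CPM in hsl2 and 40.8 ± 4.71 CPM in wild type (SD, n = 3 each), for a log2 fold change of -0.85 ± 0.14 (standard error; adjusted p = 0.117, edgeR). Without wild type 3 it was -0.94 and passed (adjusted p = 0.0438, edgeR), as did 55 genes in all. Wild type 3 was the lowest wild type library for COL5, so leaving it out favours a larger difference. COL5 passed in 4 of the 13 alternatives, over which the adjusted p ran from 8.85e-05 to 0.475.

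COL1, a close neighbour and relative of CO, had 3, 6 and 4 counts in hsl2 and 20, 17 and 16 counts in wild type. That is 0.213, 0.303 and 0.262 CPM in hsl2 and 0.983, 1.05 and 0.971 CPM in wild type, with a wide gap between the groups. The log2 fold change was -1.90 ± 0.43 (standard error; adjusted p = 0.176, edgeR). COL1 passed the filter, set at 0.629 CPM of the unscaled library in 3 libraries, through wild type only, so that a tested COL1 had to be lower in hsl2. An annotated antisense transcript, AT5G15845, covers all 1807 bases of COL1, and was at 2.06, 2.53 and 1.77 CPM in hsl2 and 2.16, 3.01 and 3.03 CPM in wild type. COL2, a further CO relative, had 0, 3 and 3 counts in hsl2 and 3, 3 and 2 counts in wild type, at or below the level of 3 counts in every library, and no difference was detectable at this depth. COL2 overlaps its neighbours AT3G02370 and AT3G02390 on the opposite strand by 771 and 688 bases in the annotation, and these had 28 or more counts in every library.

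By edgeR 0 of the 7 tested members passed the adjusted threshold, as did 0 of all 17989 genes (0%). Over all genes limma-voom also called 0, and DESeq2 called 292. At an unadjusted p under 0.05 there were 5 lower members, LKP2, FKF1, CDF3, COL5 and COL1, where 6.01% of all genes tested were lower at that p. The libraries did not overlap in 3 tested members, FKF1, COL5 and COL1, where 9.44% of all genes tested lay wholly below wild type. The median log2 fold change was -0.85 over the 7 tested members and 0.01 over all genes tested. The list was chosen with the contrast in view, and 3 members were left out for low counts. COL1, which enters both counts and the median, passed the filter through wild type only. These counts and the median therefore carry no weight as evidence. With DESeq2 both COL5 (adjusted p = 8.85e-05) and FKF1 (adjusted p = 0.00769) were lower, 2 of 7 members, against 0.706% of all genes tested. The limit from the choice of the list holds here too. In simulated data 21 of 151 DESeq2 calls were false, against 9 of 128 with edgeR. Those counts were drawn with the spread that edgeR had estimated, and edgeR made 0 calls in the real data. The simulation therefore cannot decide between the tools here.

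**Figure D3:**
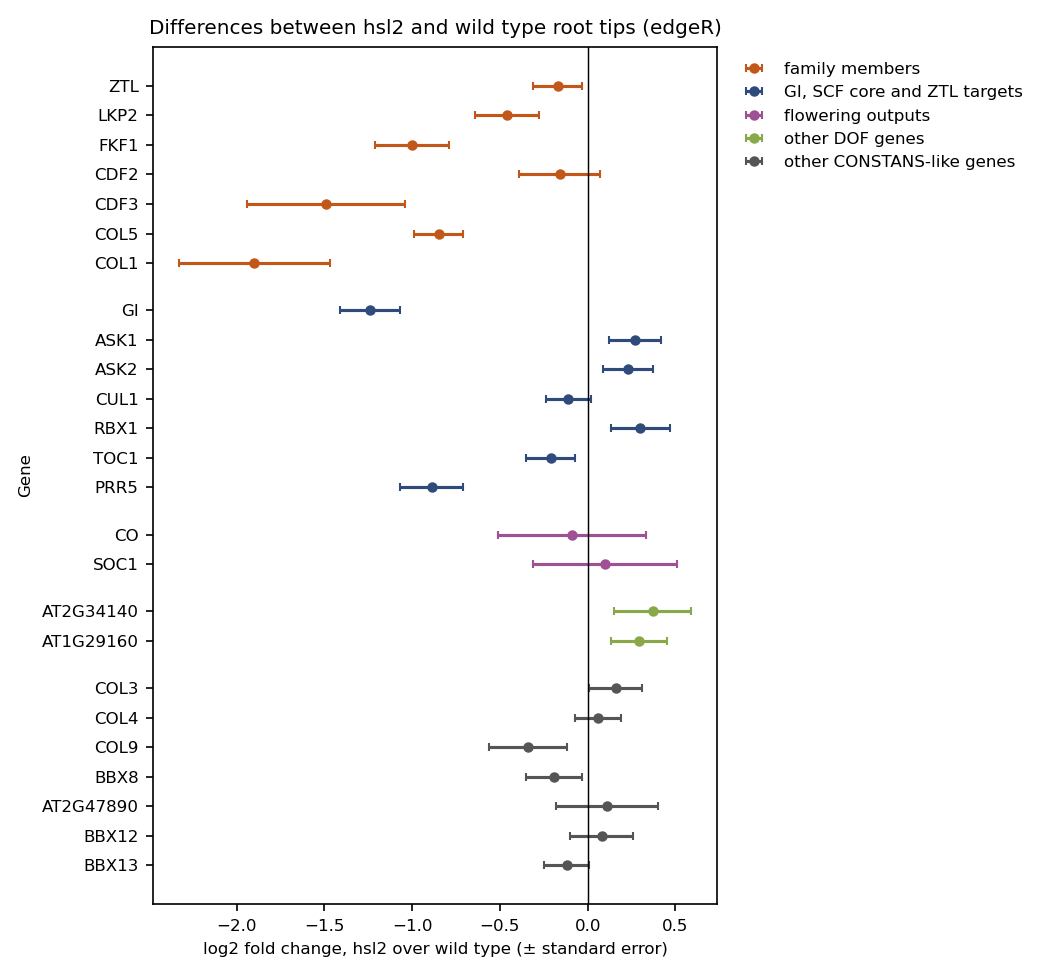
Log2 fold change of hsl2 over wild type on the horizontal axis, with its standard error, for the 7 tested members and, in separate blocks below, for the tested genes of GI and the ubiquitin ligase, flowering outputs, other Dof genes and other CONSTANS-like genes. FKF1 (-1.0), CDF3 (-1.49), COL5 (-0.85), COL1 (-1.90), GI (-1.24) and PRR5 (-0.89) lie left of the rest, and the other CONSTANS-like genes lie between -0.34 and 0.16.

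GI and PRR5 were lower in every hsl2 library, while TOC1 and the ubiquitin ligase genes overlapped between genotypes. GI was at 37.4, 30.5 and 30.5 CPM in hsl2 and 85.6, 87.1 and 60.3 CPM in wild type, without overlap, with log2 fold change -1.24 ± 0.17 (standard error; adjusted p = 0.114, edgeR). PRR5, a clock repressor and ZTL substrate, was at 19.1, 14.2 and 12.4 CPM in hsl2 and 31.2, 27.1 and 26.6 CPM in wild type, also without overlap (log2 fold change -0.89, adjusted p = 0.138, edgeR). Both passed with DESeq2, at adjusted p = 1.96e-07 for GI and 0.00271 for PRR5, and without the filter on low counts, at adjusted p = 0.00479 for GI and 0.0371 for PRR5 (edgeR). Without wild type 3, GI was at -1.40 and passed (adjusted p = 0.0265, edgeR), as did 55 genes in all. Without both hsl2 1 and wild type 3, GI and PRR5 passed (adjusted p = 0.000533 for GI and 0.00249 for PRR5, edgeR), as did 1311 genes in all. For both genes hsl2 1 was the highest hsl2 library and wild type 3 the lowest wild type library, so leaving them out favours a larger difference. Over all 13 alternatives the adjusted p of GI ran from 1.96e-07 to 0.440 and that of PRR5 from 0.00249 to 0.580. TOC1, the other clock substrate of ZTL, was at 65.4, 71.8 and 75.4 CPM in hsl2 and 89.0, 70.5 and 87.2 CPM in wild type, with overlap (log2 fold change -0.21, adjusted p = 0.505, edgeR). The subunits of the ubiquitin ligase had log2 fold changes of 0.27 for the adaptor gene ASK1, 0.23 for ASK2, 0.30 for the RING subunit gene RBX1 and -0.11 for the cullin gene CUL1, all with overlapping libraries. Over this group of 7 tested genes 4 were lower and 3 higher, with a median of -0.11 and 0 past the adjusted threshold. Of 15 clock transcription factor and coactivator genes, PRR5 and TOC1 among them, 13 were lower and 2 higher. Their median was -0.69, and 0 passed the adjusted threshold. Of all 17989 genes tested 8714 were lower, with a median of 0.01. In 6 of the 15 all hsl2 libraries lay below all wild type libraries, against 9.44% of all genes tested. CCA1, LHY and RVE8 overlapped, with 37, 40 and 55 counts in wild type 2 but 2, 5 and 10 in wild type 3. The list was chosen with earlier results of these data known.

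Of the flowering genes downstream of the CDF proteins in leaves, FT and TSF were barely or not counted in the root tip. CO, at low counts, and SOC1 could be tested. FT was at 0 counts in each of the 6 libraries, so that a level of up to 0.148 to 0.213 CPM, depending on the library, could have gone unseen, and TSF, its close relative, had 1 count, in wild type 2. CO was at 0.854, 1.26 and 0.785 CPM in hsl2 and 0.934, 0.677 and 1.52 CPM in wild type, from 11 to 25 counts. Its groups overlapped, and the log2 fold change of -0.09 had a standard error of 0.42 (adjusted p = 0.939, edgeR) and turned positive without wild type 3. CO lies on the same strand as COL1 with 3005 bases between them, and whether their differences are unequal was not tested. SOC1, a MADS-box flowering gene also known from roots, was at 10.2, 7.84 and 12.0 CPM in hsl2 and 10.1, 3.26 and 14.6 CPM in wild type, and the hsl2 libraries lay within the wild type range.

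Other genes of the same families had differences of either sign. Of 3 further Dof genes set beside the CDF members, AT2G34140 and AT1G29160 were tested, with log2 fold changes of 0.37 and 0.29 and standard errors of 0.22 and 0.16 (adjusted p = 0.470 and 0.453, edgeR). AT2G34140 was at 4.34, 4.10 and 3.60 CPM in hsl2 and 3.15, 3.08 and 3.10 CPM in wild type, and AT1G29160 at 14.9, 12.9 and 13.0 CPM in hsl2 and 10.3, 10.3 and 12.9 CPM in wild type. The hsl2 libraries of both lay above all wild type libraries, by a margin smaller than the rounding between hsl2 2 and wild type 3 in AT1G29160, as those of 11.3% of all genes tested did. AT1G26790 had 2 to 4 counts in hsl2 and 3 to 16 counts in wild type and was not tested.

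Of 13 further CONSTANS-like genes 7 were tested, 3 lower and 4 higher, the median being 0.06 on the log2 scale, and 0 were at an unadjusted p under 0.05. COL3, at 81.8 ± 6.03 CPM in hsl2 and 73.2 ± 12.3 CPM in wild type (SD, n = 3 each), and COL4, at 35.1 ± 0.813 CPM in hsl2 and 33.8 ± 4.12 CPM in wild type (SD, n = 3 each), belong to the same subgroup as COL5 and had overlapping libraries. COL9, a repressor of flowering, was at 11.9 ± 1.2 CPM in hsl2 and 15.0 ± 4.19 CPM in wild type, and BBX8 at 18.5 ± 1.53 CPM in hsl2 and 21.2 ± 3.31 CPM in wild type (SD, n = 3 each). For BBX13 the log2 fold change was -0.12 ± 0.13 (standard error). BBX16, BBX9 and BBX10 had 0 counts in all 6 libraries, and BBX14, BBX15 and BBX17 between 0 and 6 counts per library. Whether COL5 and COL1 differed more than these relatives was not tested.

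The genes with patterns most like the members' were found by the mean absolute difference of centred log2 CPM over the 6 libraries, against the 17988 other genes tested. For COL5 they were the alpha-amylase gene AMY3 at 0.05, AT5G15870 at 0.07 and MEE29 at 0.08. For FKF1 they were PSY1 (AT5G58650) at 0.07 and AT5G16030 and the kinase gene STY46 at 0.10 each, and for LKP2 AT3G15070 and MGL at 0.05 each and AT4G29950 at 0.06. CDF3, at 18 to 101 counts per library, and COL1, at 3 to 20, had no pattern as close. What part their low counts play in this was not tested. The nearest to CDF3 were CYP705A5, AT3G10100 and BOR4 at 0.19 each, and the nearest to COL1 were the homocysteine methyltransferase gene HMT3 at 0.17, AT4G18425 at 0.18 and CYP96A8 at 0.19.

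**Figure D4:**
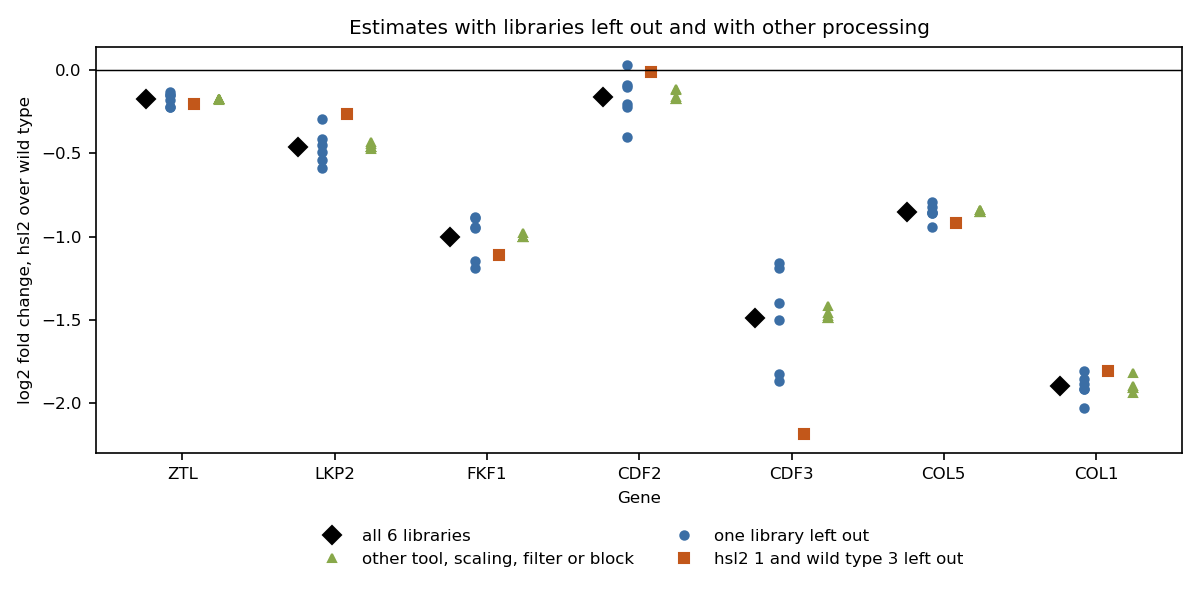
Log2 fold change of hsl2 over wild type on the vertical axis for the 7 tested members, with all 6 libraries (diamonds), with each library left out in turn (circles), without hsl2 1 and wild type 3 (squares) and with other tools, scalings, filters or the replicate block (triangles). COL5 stays between -0.94 and -0.79 and FKF1 between -1.19 and -0.88, whereas CDF3 ranges from -2.19 to -1.16 and CDF2 from -0.40 to 0.03.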

How the data were processed

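Per the submitters' processing notes, the authors trimmed reads with Trimmomatic 0.33, aligned them with STAR 2.5.1b and counted them with featureCounts. The authors deposited unnormalized read counts for each gene, with 1 file per library. The sources used here name neither build, annotation nor strand setting. Of 37336 identifiers, 37051 matched a locus of RefSeq TAIR10.1, which gave symbols, promoter windows and summed exon lengths for TPM.

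In R 4.3.3, edgeR 4.0.16 (filterByExpr, TMM, quasi-likelihood F-test, genotype as the only term, all 6 libraries) tested 17989 genes, with Benjamini-Hochberg adjustment over all of them, a threshold of 0.05 and log2 fold changes of hsl2 over wild type. The F statistic gave the standard errors. The gene calls were tested on simulated data with known fold changes. There 9 of 128 edgeR calls, 21 of 151 DESeq2 calls and 11 of 129 limma-voom calls were false. The simulated spread was the one estimated by edgeR, so the tools were not compared on equal terms. Chi-square per degree of freedom between libraries was at least 6.17, so none was a duplicate.

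The members and gene lists were chosen with earlier results of these data known. Named were all members, GI, CO, FT, TOC1, PRR5 and HSL2, up to 4 genes of each other list by smallest p, and the 3 closest patterns of each member at an unadjusted p under 0.05. COL4, AT1G26790, TSF, CCA1, LHY, RVE8, the genes with few or 0 counts and those overlapping members were added after their values were seen. Apart from the genes named here, the clock and marker lists were only summed. Alternatives were RLE scaling, leaving out the filter, requiring 1 CPM in 3 libraries, DESeq2 1.42.0, limma-voom (limma 3.58.1), leaving out libraries, and the replicate number as a block.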

Additional observations from a re-analysis of the deposited data

How the results depend on the processing

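The number of genes called was 0 with edgeR, RLE scaling, a filter of at least 1 CPM and limma-voom, 110 without a filter, 292 with DESeq2, 52 with the replicate number as a block, and between 0 and 55 with a library left out, the last without wild type 3. Without hsl2 1 and wild type 3 together it was 1311. Of the tested members 0 were called with all 6 libraries, and 2, FKF1 and COL5, without a filter and likewise 2 with DESeq2. Leaving out a library gave 0 or 1, COL5 without wild type 3, and leaving out hsl2 1 and wild type 3 gave 3, FKF1, CDF3 and COL5. With the replicate block 0 members were called, while GI passed (adjusted p = 0.0135). The labels do not say whether the numbers pair the libraries. Deviations of same-numbered libraries correlated at 0.138, 0.0645 and 0.0204, and those of other pairs at -0.169 to 0.0645. The deviations of wild type 3 correlated at 0.0645 with those of hsl2 2 and at 0.0204 with those of hsl2 3.

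FKF1, LKP2, ZTL, CDF3, COL5 and COL1 kept their direction under every alternative run. COL1 gave no value under the filter of at least 1 CPM. With a library left out, log2 fold changes ran from -0.40 to 0.03 for CDF2, positive without wild type 3, from -0.34 to 0.27 for CO, from -0.30 to 0.56 for SOC1, from -0.05 to 0.13 for COL4, from -0.12 to 0.53 for AT2G47890 and from -0.04 to 0.18 for BBX12. Without hsl2 1 and wild type 3 CO was at 0.35. The causes of these turns and of the changed counts were not tested. At 0 to 20 counts per library, CDF1, CDF5, COL1 and COL2 are limited by depth.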
